A study of Oryza sativa with 6 samples.

Results

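Small heat shock proteins and HSP101 were followed in young rice grains through 9 locus identifiers. They comprise 3 cytosolic class I small heat shock protein loci in a run on chromosome 1, 3 more in a run on chromosome 3, 2 organelle forms and the HSP101 locus. The deposited table lists 39217 gene models, among them 8 of the 9 loci, and all 8 passed the filter on low counts, which left 23395 genes tested. The organelle form LOC_Os02g52150 was not analysed here. Grains of the drw1 mutant and of the wild type ZH11, a japonica rice cultivar, were collected 3 days after pollination from plants grown in paddy fields, with 3 RNA-seq libraries per genotype. The labels call the plants drw1 mutant or WT and give neither the kind of mutation nor its locus. Whether the numbered libraries stem from different plants is not stated, and p-values thus refer to variation between libraries, which may be technical. The labels also give no hour of harvest or air temperature for either genotype.

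Heat shock proteins are chaperones. Small heat shock proteins form oligomers that bind unfolding proteins and keep them soluble, and plant families are sorted into classes by sequence and by compartment, with class I in the cytosol and others in plastids, mitochondria, peroxisomes or the endoplasmic reticulum. HSP101, the cytosolic ClpB-type disaggregase of plants, pulls proteins out of aggregates with HSP70 and is required for acquired heat tolerance in Arabidopsis and maize. These genes are induced by heat through heat shock factors, and many are also expressed in seeds during development without heat.

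HSP101 fell 2.77-fold in drw1 grains, while several class I small heat shock protein loci rose. Of the 7 small heat shock protein loci measured, 4 rose, all of them class I, 0 fell and 3 did not pass the test. The largest rise was 3.06-fold, at LOC_Os03g16030. A gene was called when its adjusted p in edgeR's quasi-likelihood test was under 0.05. By this rule 5 of the 8 loci were called (62.5%), against 70.1% of all genes tested. In single directions, 4 of 8 loci were higher where 35.7% of all genes were, and 1 was lower where 34.4% of all genes were. The number of called loci was thus close to what the whole table showed, in which most genes differed between the genotypes. Among the 8 loci, 2 changed at least 2-fold, against 27.3% of all genes, 1 of them upward (12.7% of all genes) and 1 downward (14.6%). The median log2 fold change was 0.54 over the 8 loci and 0.03 over all genes tested.

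Library totals ran from 15582373 to 24147797 counts, so that 1 library without a read for a gene would lie below 0.131 to 0.201 CPM (3 counts). CPM is the count scaled to a common library total with TMM factors. In the same libraries, the 12 tested loci assigned to endosperm markers were all lower in drw1, with summed levels of 17.1 to 18.0 CPM in drw1 and 305 to 324 CPM in ZH11. Of 10 tested green pericarp marker loci, 8 were lower and 1 was higher, a rise that was not called in 8 of 14 alternatives. They summed to 1140 to 1227 CPM in drw1 and 1791 to 2062 CPM in ZH11. Of 3 embryo marker loci, 1 was lower, with sums of 164 to 181 CPM in drw1 and 169 to 178 CPM in ZH11. In 2 of 14 alternatives, scaling by library totals or by upper-quartile factors, 1 embryo marker locus was also called higher. Over all genes tested, 34.4% were lower and 35.7% were higher. No marker in the table was at 0 counts over all libraries. The part of these shifts in the values below was not tested. In whole grains, fewer cells of a type and less RNA per cell cannot be told apart.

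HSP101, at LOC_Os05g44340, had the lowest adjusted p of the 8 loci. It stood at 15.4, 15.9 and 16.0 CPM in drw1 libraries and at 49.0, 43.0 and 38.6 CPM in ZH11 libraries. The genotypes were far apart, with every drw1 library far below the lowest ZH11 library. The log2 fold change was -1.47 (SE 0.10; adjusted p = 4.5e-10 by edgeR), with a 95% interval of -1.67 to -1.26. The drw1 libraries differed little among themselves, with a coefficient of variation of 2.14%, less than counting alone would give. In ZH11 it was 12.0%. A spread below counting error was not particular to HSP101, as 7 of the 8 loci had it in drw1 and 3 in ZH11. The reason was not tested. Among all genes tested, 9.01% had a lower log2 fold change than HSP101.

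The 3 class I loci on chromosome 3 all rose. LOC_Os03g16030 stood at 9.80, 11.2 and 10.1 CPM in drw1 and at 3.58, 2.62 and 4.16 CPM in ZH11. Its lowest drw1 library was far above every ZH11 library. The log2 fold change was 1.61 (SE 0.17; adjusted p = 1.8e-07 by edgeR), higher than that of 93.8% of genes tested. LOC_Os03g16040 had 20.6, 20.5 and 21.4 CPM in drw1 and 11.9, 11.0 and 11.5 CPM in ZH11. Libraries of each genotype were close together and the genotypes did not overlap. The log2 fold change was 0.86 (SE 0.10; adjusted p = 5.1e-07 by edgeR), a 1.82-fold difference. LOC_Os03g16020 had 7.97, 10.5 and 9.56 CPM in drw1 and 6.40, 6.39 and 6.37 CPM in ZH11. Here drw1 replicate 1 lay nearest to ZH11, though still above it, and the near-identical ZH11 values differed by less than counting error alone would give. The rise was 1.46-fold (log2 fold change 0.55, SE 0.14; edgeR, adjusted p = 0.0021).

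**Figure D1:**
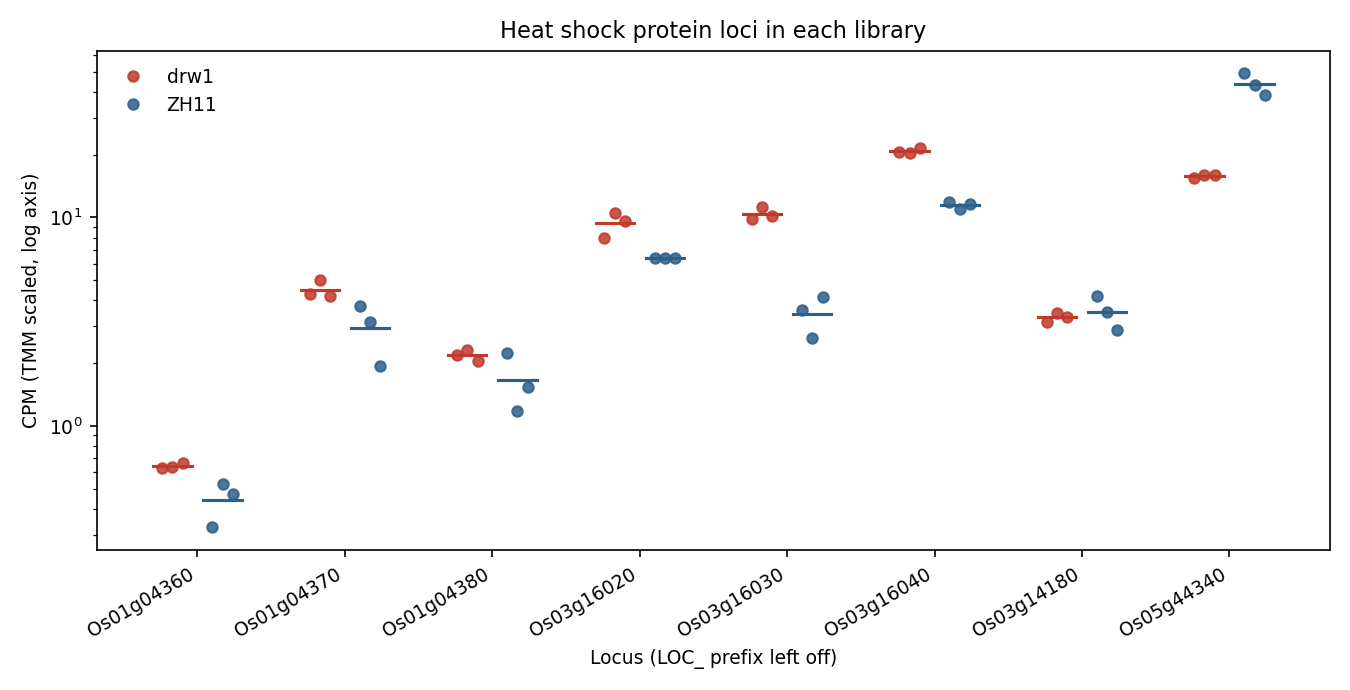
Expression of the 8 heat shock protein loci in each library, in CPM on a log axis, with drw1 in red and ZH11 in blue; points are libraries and bars are means of 3. HSP101 (Os05g44340) is lower in all drw1 libraries, at 15.4 to 16.0 CPM against 38.6 to 49.0 CPM in ZH11, while the 3 chromosome 3 loci (Os03g16020 to Os03g16040) are higher in all of them.

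The class I loci on chromosome 1 were expressed at lower levels, and 1 of 3 was called. LOC_Os01g04370 had 4.30, 5.01 and 4.20 CPM in drw1 and 3.74, 3.15 and 1.95 CPM in ZH11. All drw1 libraries were above those of ZH11, but ZH11 replicate 1 came close and ZH11 replicate 3 was the lowest by a wide margin. The log2 fold change was 0.59 (SE 0.22; adjusted p = 0.023 by edgeR). This call rested on single libraries, since without drw1 replicate 2 the log2 fold change was 0.51 (adjusted p = 0.087, edgeR) and without ZH11 replicate 3 it was 0.39 (adjusted p = 0.10, edgeR).

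The other two chromosome 1 loci were not past the threshold. LOC_Os01g04380 had 2.18, 2.30 and 2.05 CPM in drw1 and 2.22, 1.18 and 1.54 CPM in ZH11. The genotypes overlapped, because ZH11 replicate 1 was above 2 of the drw1 libraries. Its log2 fold change was 0.41 (95% interval -0.17 to 0.99; edgeR, adjusted p = 0.19). LOC_Os01g04360 was the lowest of the 8 loci, with 0.63, 0.63 and 0.66 CPM in drw1 and 0.33, 0.52 and 0.47 CPM in ZH11. Although its libraries did not overlap, these values came from 34 counts over drw1 and 25 over ZH11. The 95% interval of its log2 fold change ran from -0.36 to 1.41 (edgeR, adjusted p = 0.27), which includes both no change and a rise of 2-fold, so no difference was detectable at this depth.

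In 6 of the 8 loci the drw1 and ZH11 libraries did not overlap, against 72.6% of all genes tested. In 5 of them every drw1 library was above every ZH11 library (37.3% of all genes), and in HSP101 every one was below (35.3%).

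Tandem copies of class I genes can resemble each other closely, and how reads with several matches were counted is not given in the sources used here. Values of single copies are therefore uncertain, and the counts of each run were also summed, which removes any division of reads within the run. Reads divided with loci outside the run, or left uncounted, are not covered by the sum. The chromosome 1 run summed to 7.11, 7.95 and 6.91 CPM in drw1 and to 6.29, 4.86 and 3.96 CPM in ZH11. The sums did not overlap, with a log2 fold change of 0.53 (SE 0.17; adjusted p = 0.010 by edgeR). The chromosome 3 run summed to 38.3, 42.2 and 41.1 CPM in drw1 and to 21.9, 20.0 and 22.1 CPM in ZH11. That run was 1.91-fold higher in drw1 (log2 fold change 0.93, SE 0.08; adjusted p = 3.1e-08 by edgeR). Within the chromosome 3 run the rises ran from 1.46-fold to 3.06-fold. The 95% interval of the log2 fold change was 0.25 to 0.85 for LOC_Os03g16020, 0.66 to 1.07 for LOC_Os03g16040 and 1.26 to 1.97 for LOC_Os03g16030, and the interval of LOC_Os03g16030 overlapped neither of the others.

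**Figure D2:**
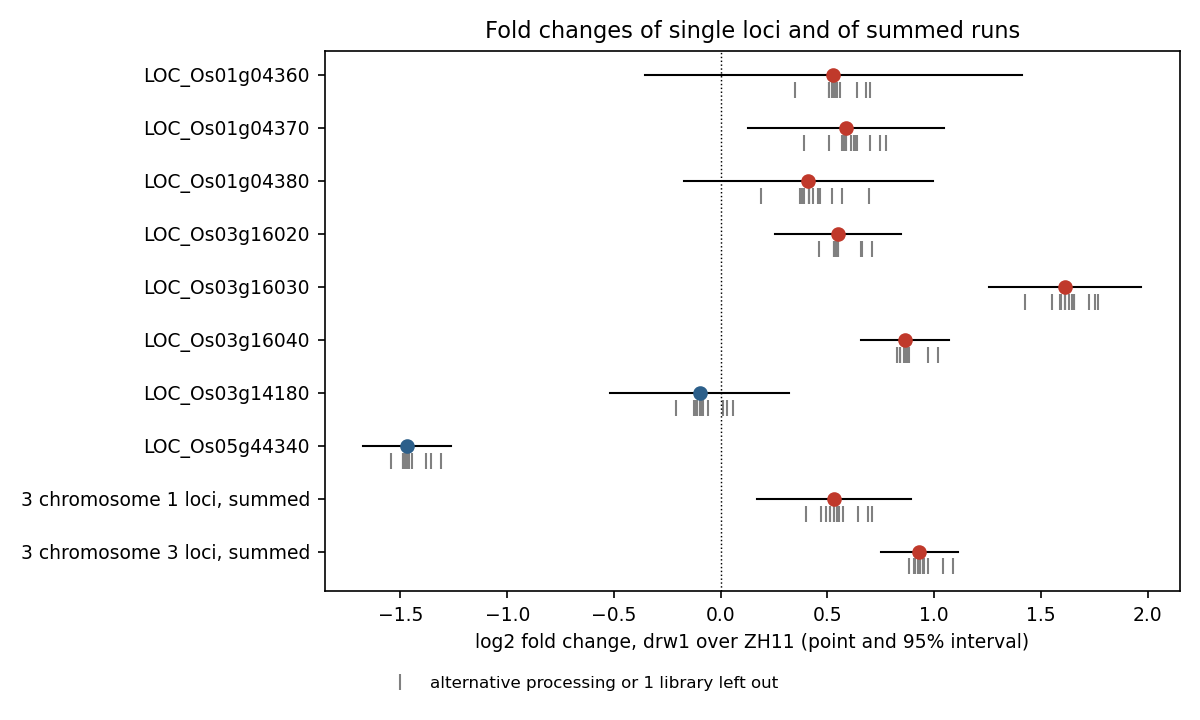
Log2 fold changes of drw1 over ZH11 for the 8 loci and for the summed runs; points carry 95% intervals, red above 0 and blue below it, and grey ticks are the values under each alternative processing or with 1 library left out. HSP101 stays between -1.55 and -1.31 and LOC_Os03g16030 between 1.42 and 1.77, while the ticks of LOC_Os03g14180 fall on both sides of 0.

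The remaining organelle form, LOC_Os03g14180, did not pass the test. It stood at 3.15, 3.46 and 3.32 CPM in drw1 and at 4.18, 3.50 and 2.88 CPM in ZH11. All drw1 libraries lay within the range of ZH11. The log2 fold change was -0.10 (edgeR, adjusted p = 0.67), with a 95% interval of -0.52 to 0.32. A fall of more than 1.43-fold or a rise of more than 1.25-fold lies outside this interval. The sign was not fixed, as it was 0.06 with library totals as scaling.

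Levels of different loci were compared per length, as RPKM (CPM divided by the deposited gene length in kilobases), and the part of each transcript that a gene model covers is not given in the sources used here. Models ran from 450 bases at LOC_Os01g04360 to 2767 bases at HSP101. In drw1, LOC_Os03g16020 was highest at 20.1 ± 2.80 RPKM (SD, n = 3), followed by LOC_Os03g16030 at 12.9 ± 0.938 RPKM and LOC_Os03g16040 at 11.1 ± 0.274 RPKM. HSP101 came next at 5.69 ± 0.122 RPKM and overlapped LOC_Os01g04370, at 5.59 ± 0.550 RPKM. LOC_Os03g14180 followed at 4.58 ± 0.211 RPKM, then LOC_Os01g04380 at 2.96 ± 0.176 RPKM and LOC_Os01g04360 at 1.43 ± 0.0403 RPKM. No other neighbours in this order overlapped.

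In ZH11 the order began with HSP101, at 15.7 ± 1.89 RPKM (SD, n = 3), above LOC_Os03g16020 at 13.7 ± 0.0278 RPKM and LOC_Os03g16040 at 6.13 ± 0.242 RPKM. Below these the libraries of neighbouring loci overlapped, from LOC_Os03g14180 at 4.87 ± 0.893 RPKM through LOC_Os03g16030 at 4.30 ± 0.964 RPKM and LOC_Os01g04370 at 3.66 ± 1.14 RPKM to LOC_Os01g04380 at 2.24 ± 0.720 RPKM. LOC_Os01g04360 stood last at 0.978 ± 0.229 RPKM. HSP101 thus ranked 4 in drw1 and 1 in ZH11, and LOC_Os03g16030 ranked 2 in drw1 and 5 in ZH11. Against all genes tested, the 8 loci were of low to middle level, from 9.61% of genes lying below LOC_Os01g04360 to 63.9% below LOC_Os03g16020 in mean RPKM over all libraries.

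HSP101 made up 8.85 ± 0.468% of the summed RPKM of the 8 loci in drw1 and 30.4 ± 1.45% in ZH11 (SD, n = 3). The share of LOC_Os03g16030 was 20.0 ± 0.452% in drw1 and 8.36 ± 2.10% in ZH11. LOC_Os03g16020 was the most abundant of the 7 small heat shock protein loci among these 8, in both genotypes. It held 31.1 ± 2.27% in drw1 and 26.7 ± 2.05% in ZH11. LOC_Os03g14180 held 7.11 ± 0.166% in drw1 and 9.38 ± 1.04% in ZH11. Shares sum to the whole, so a lower share of HSP101 raises the summed share of the other loci.

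**Figure D3:**
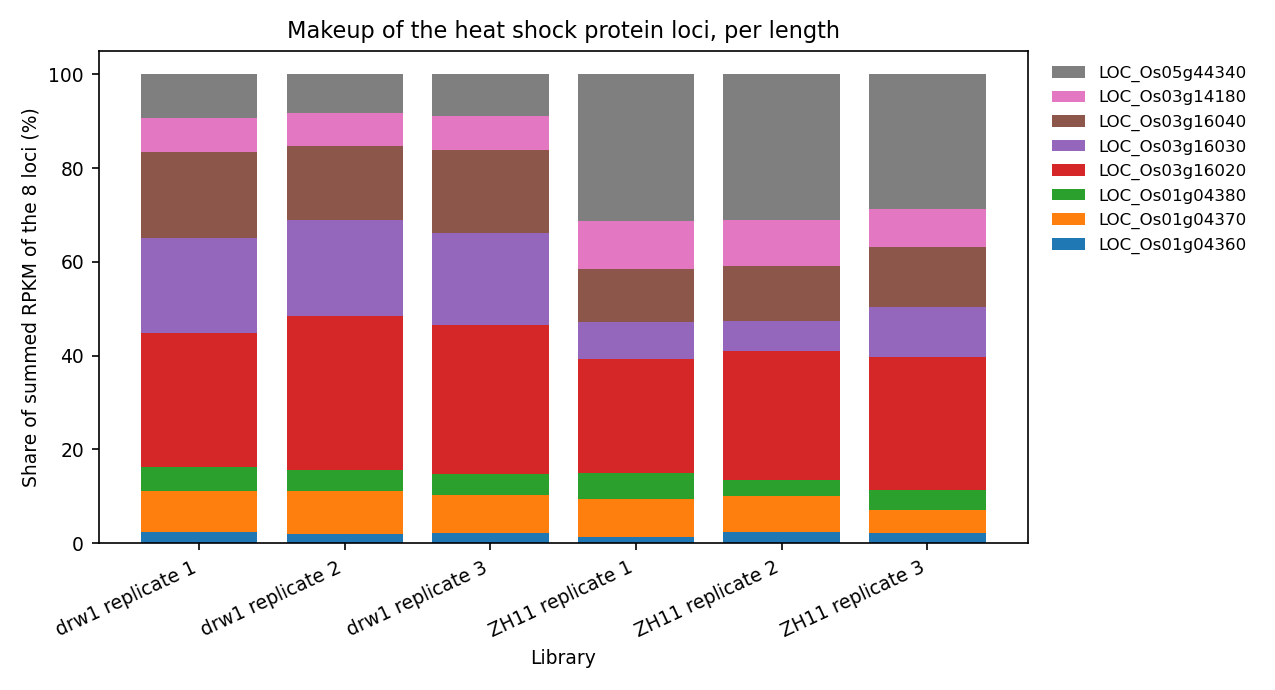
Share of each locus in the summed RPKM of the 8 loci, in percent, for the 3 drw1 libraries on the left and the 3 ZH11 libraries on the right. The grey block of HSP101 at the top is 8.34% to 9.26% in drw1 and 28.7% to 31.4% in ZH11.

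Set against HSP101 within each library, which cancels the scaling between libraries, the 7 small heat shock protein loci together had 9.80, 11.0 and 10.2 times its RPKM in drw1. In ZH11 they had 2.19, 2.22 and 2.48 times its RPKM. The lowest drw1 ratio was thus well above the highest ZH11 ratio. The difference was 4.50-fold, with an exact two-sided permutation p of 0.1 over libraries, the smallest that 3 against 3 allows. Both parts of the ratio already separated the genotypes, in opposite directions. The p of the ratio was thus fixed beforehand and adds no support. The ratio of the chromosome 3 run to the chromosome 1 run was 4.43 ± 0.275 in drw1 and 3.62 ± 0.808 in ZH11 (SD, n = 3; exact two-sided permutation p = 0.3). That difference was within the spread of the ZH11 libraries.

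**Figure D4:**
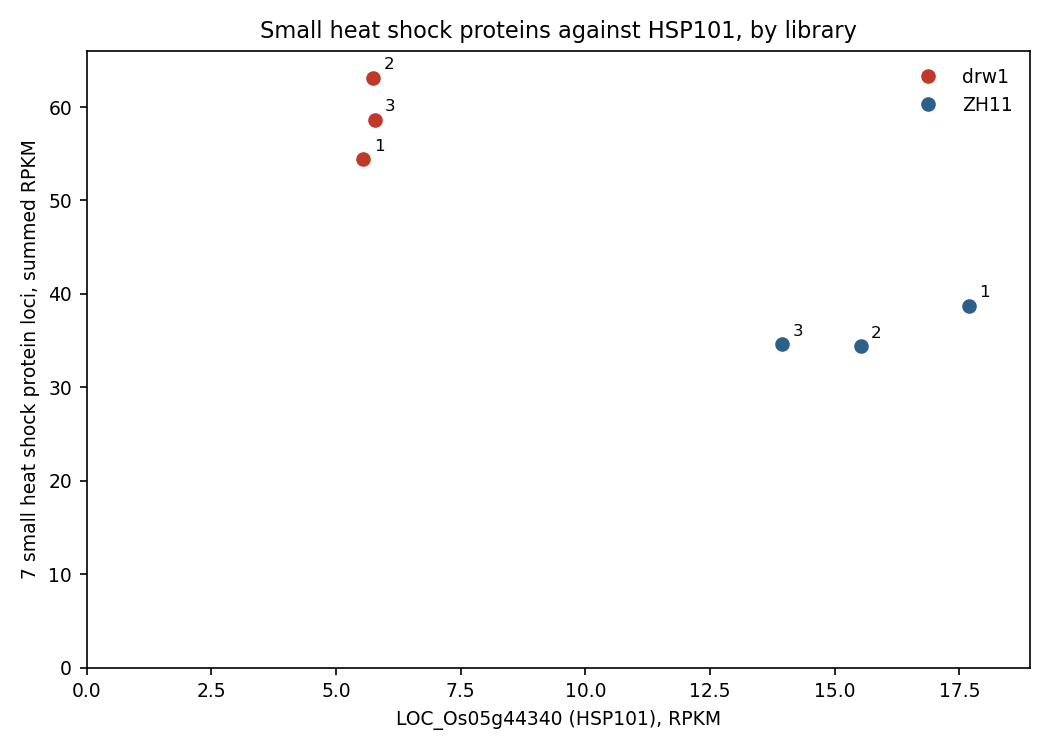
Summed RPKM of the 7 small heat shock protein loci against the RPKM of HSP101, with 1 point per library, numbered by replicate, drw1 in red and ZH11 in blue. The drw1 libraries lie at 54.4 to 63.1 RPKM for the small heat shock proteins and 5.55 to 5.77 RPKM for HSP101, and the ZH11 libraries at 34.4 to 38.7 and 13.9 to 17.7 RPKM.

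Locus identifiers run along each chromosome, so the tested loci next to each run were looked at. Of the 10 nearest to the chromosome 3 run, 1 rose, 6 fell and 3 were not past the threshold, and their median log2 fold change was -0.37. Of all genes tested, 35.7% rose and 34.4% fell. The riser, at 0.95, was itself a locus assigned to the small heat shock proteins. Next to the chromosome 1 run, 2 rose, 3 fell and 5 were not past the threshold (median -0.32). Of these risers, 1, at 0.61, was likewise a locus assigned to the small heat shock proteins. Log2 fold changes beside the chromosome 1 run ran from -2.02 to 3.47, and beside the chromosome 3 run from -1.91 to 0.95. The value of 3.47 was above that of every member, the largest being 1.61.

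Other loci of the heat response were taken from lists of identifiers that no annotation used here pairs with names, so membership is an assignment. Among 14 further small heat shock protein loci tested, 8 rose, 3 fell and 3 did not pass, and their median was 0.66 on the log2 scale, against 0.03 over all genes. The called share was 78.6%, against 70.1% of all genes tested (35.7% higher and 34.4% lower). The largest rise was at LOC_Os07g33350, with 20.5, 19.2 and 22.5 CPM in drw1 and 5.59, 6.52 and 3.35 CPM in ZH11. This locus was 3.92-fold higher (edgeR, adjusted p = 7.1e-09). Of the other 2 loci assigned to the ClpB family, 1 rose by 1.19 and 1 fell by 0.99 on the log2 scale. Both directions thus occurred in the family of HSP101.

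Heat shock factors are the transcription factors that bind heat shock elements in front of these genes. Of 22 tested loci assigned to them, 8 rose, 10 fell and 4 did not pass, with a median of -0.16. The called share was 81.8%, against 70.1% of all genes tested, of which 35.7% were higher and 34.4% lower. LOC_Os07g44690 had 33.2, 32.4 and 36.0 CPM in drw1 and 7.92, 9.10 and 8.72 CPM in ZH11. It was 3.94-fold higher, with no overlap (edgeR, adjusted p = 1.0e-11). In the other direction, LOC_Os02g13800 had 3.38, 4.61 and 4.37 CPM in drw1 and 92.0, 84.9 and 65.8 CPM in ZH11. This 19.6-fold difference was the largest fall of the list (edgeR, adjusted p = 3.2e-14). LOC_Os07g08140 followed at 1.21 ± 0.153 CPM in drw1 and 4.66 ± 0.695 CPM in ZH11 (SD, n = 3; edgeR adjusted p = 8.4e-07).

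HSP70 chaperones fold proteins with ATP and work with HSP101 in disaggregation. Of 12 loci assigned to them, 4 rose and 8 fell, with log2 fold changes from -2.17 to 1.19 and a median of -0.53. The list was not sorted by compartment, so not all of its loci need work with the cytosolic HSP101. All 12 were called, where 35.7% of all genes tested were higher and 34.4% lower. Summed, they stood at 2675 to 2729 CPM in drw1 and 2214 to 2244 CPM in ZH11, so the list's sum and its median differed in direction. The sum was carried by its most abundant locus, at 1778 CPM in drw1 and 779 CPM in ZH11 on average. Of 6 loci assigned to HSP90, which matures client proteins such as kinases and receptors, 2 rose, 3 fell and 1 did not pass, all within 2-fold. Without ZH11 replicate 2, 1 of the HSP90 loci rose. Of 6 loci assigned to cofactors of the heat response, 4 rose by up to 0.62 on the log2 scale, 0 fell and 2 did not pass. Without drw1 replicate 3, 1 of these fell.

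**Figure D5:**
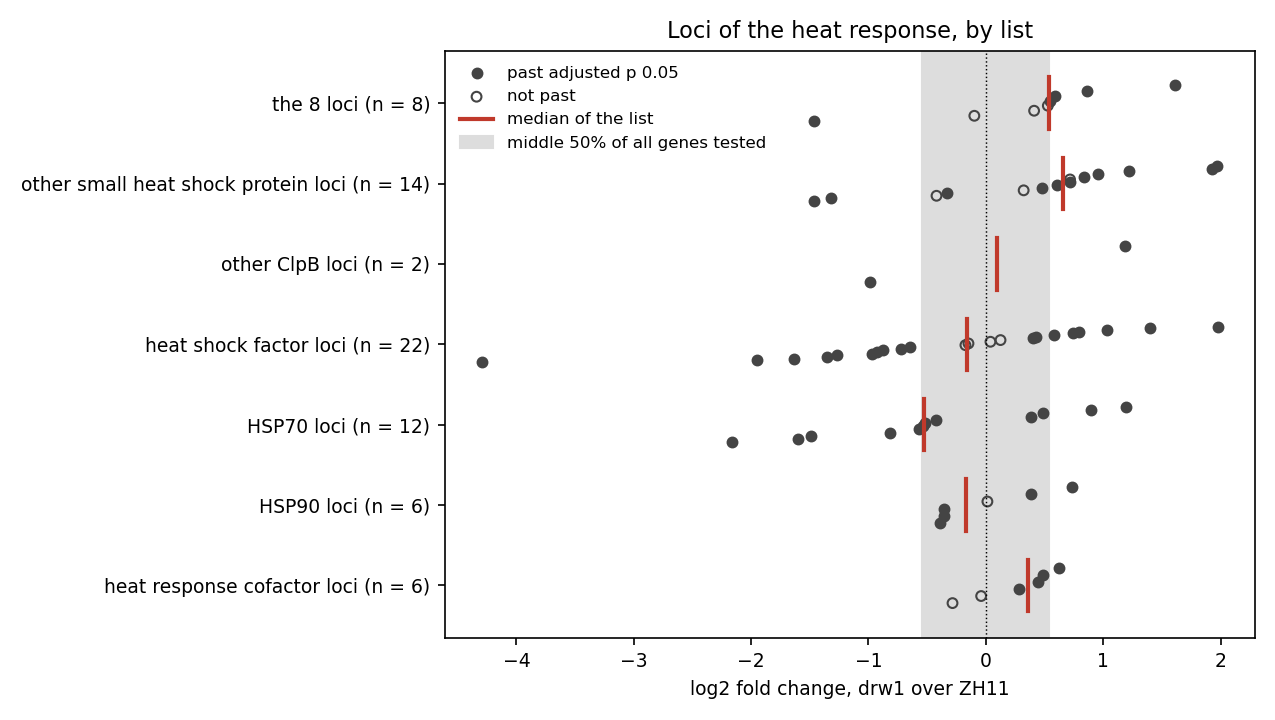
Log2 fold changes of drw1 over ZH11 for the 8 loci and for 6 lists of loci assigned to the heat response, with 1 point per tested locus, filled if past an adjusted p of 0.05; red bars are medians and the grey band runs from the lower to the upper quartile of all genes tested, -0.54 to 0.54. Both rises and falls occur in the lists of factors, HSP70 and HSP90, and the median of the further small heat shock proteins is 0.66.

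Loci outside all lists with the pattern most like HSP101 were sought among 18061 tested loci that reached a mean of 5 CPM or more in either genotype. Likeness was the root-mean-square difference between profiles of log2 CPM over the 6 libraries, each centred on its own mean. LOC_Os10g32580 was nearest at 0.0221, with 52.6 ± 2.22 CPM in drw1 and 146 ± 16.6 CPM in ZH11 (SD, n = 3). LOC_Os05g05940 came next at 0.0328, with 118 ± 2.50 CPM in drw1 and 327 ± 45.6 CPM in ZH11. The pattern was not particular to the named loci, since 834 of the 18061 lay within 0.2 of it.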

How the data were processed

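RNA was sequenced from whole grains, 3 libraries each of drw1 and ZH11. The submitters' processing notes name fastp, HISAT2, featureCounts and DESeq. Versions, genome build, annotation, strand setting and the handling of multi-mapping reads were not given in the sources used here. The deposited table holds whole-number counts per gene model, not normalized, and a gene length in bases, per the file headers. The headers of the mutant columns do not contain drw1. They were taken as drw1 because the series holds no other genotype besides ZH11, so every direction rests on this assignment. The mutated gene was not checked.

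Genotypes were compared with edgeR 4.0.16 in R 4.3.3 (quasi-likelihood test, two-sided, TMM scaling, default low-count filter, genotype as the only factor). Benjamini-Hochberg adjustment ran over all 23395 tested genes. Standard errors are approximate, being computed from the fold change and its F statistic. Log2 fold changes are drw1 over ZH11. RPKM was computed from the deposited lengths. Alternatives used DESeq2 1.42.0, limma 3.58.1 (voom), other scalings and filters, each library left out, and the replicate number as a block.

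The members and lists were chosen with earlier results of these data known, and the ratio to HSP101 and the look at neighbouring loci were chosen after values were seen. Lists were written from memory of locus identifiers. The RefSeq gene table given (ASM3414082v1) contains 0 of the deposited identifiers. That table holds 1 gene with the synonym hsp101, on chromosome 5 like the locus used here, which does not pair them. Loci outside the 8 were named by rule: up to 2 risen and 2 fallen in the lists of further small heat shock proteins and heat shock factors, and the 2 most like HSP101. Floors and counting errors cover counting only.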

Additional observations from a re-analysis of the deposited data

How the results depend on the processing

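Over 14 alternatives, HSP101 stayed lower in drw1 and past the threshold, with log2 fold changes of -1.55 to -1.31 (adjusted p of 8.9e-38 to 1.8e-07 over edgeR, DESeq2 and limma). Members higher numbered 3 to 4 and members lower 1. Of 111 values of single members under an alternative, 109 gave the same call, 2 lost the call (LOC_Os01g04370, without drw1 replicate 2 or ZH11 replicate 3) and 0 of the called ones reversed. The summed chromosome 1 run kept its call, at adjusted p of up to 0.046 with 1 library left out, and the chromosome 3 run did so by a wider margin (4.4e-06 at most). The stricter filter removed LOC_Os01g04360. The uncalled LOC_Os03g14180 changed sign with library totals (0.06), upper-quartile factors (0.01) and without ZH11 replicate 1 (0.03). Scaling by library totals moved the median of all genes to 0.19, and upper-quartile factors to 0.14. Relative to that median, HSP101 stood at -1.50 and LOC_Os03g16030 at 1.58 under all 4 scalings. A scaling shifts all genes nearly alike, so this sameness follows from subtracting the median and is no test of the scaling. Library totals also moved the share of called genes that were higher in drw1 to 61.3%, against 51.0% with TMM.

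With the replicate number as a block, 15505 genes were called (15485 of them shared with the 16395 of the test without it), and no member changed its side of the threshold. The deviations of libraries with the same number correlated at -0.17, 0.03 and -0.14, and 1 of 6 libraries was closest to its own number. With 3 libraries per genotype, these values cannot decide whether libraries of the same number shared a harvest or a preparation. The ratio of small heat shock proteins to HSP101 differed by 2.12 to 2.23 on the log2 scale with 1 library left out. Depth limits LOC_Os01g04360 most, with 34 counts over drw1 and 25 over ZH11.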
